A study of Homo sapiens with 6 samples.

Results

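The 10 genes described here mark activated fibroblasts, myofibroblasts and other mesenchymal cells: LRRC15, TMEM119, FAP, THY1, PDPN and S1PR3, whose products sit at the cell surface, and ACTA2, TAGLN, CNN1 and MYL9, whose products belong to the contractile apparatus. They were chosen by name, with their difference between the 2 groups already known. All 10 were present among the 25680 gene symbols of the count files, and all 10 were among the 14598 genes with enough counts to be tested. Both groups were U87 cells, an established human glioblastoma line of wild-type genotype, given 500 nM of the cyclic peptide EPP6 carrying the dye rhodamine for 1 h, detached, and sorted by fluorescence. High uptake was the brightest 30% of cells and low uptake the dimmest 30%. RNA from each fraction was sequenced in 3 libraries, which the labels number 2, 3 and 4. Cells that had not received the peptide were not analysed here.

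A fibroblast that is activated, by transforming growth factor beta (TGF-beta) or by a stiff matrix, deposits matrix and acquires surface proteins that resting tissue largely lacks. When it also assembles actin stress fibres with smooth muscle alpha-actin it is called a myofibroblast. Contractile genes of this state are driven by serum response factor (SRF) with its MRTF co-activators, through a DNA element known as the CArG box. Glioblastoma cells of the mesenchymal class share parts of this programme, and U87 is a line of adherent, mesenchymal-like cells.

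Library totals ranged from 13712263 to 40742857 counts, with the smallest in high replicate 3, and no label says that replicates came from separate cultures, so the spread between them may be technical. The label of a glioblastoma line was checked against marker genes. Of 13 glial and glioma markers, OLIG1 and AQP4 had no count in any library, and 8 in all had a mean below 1 TPM (a level scaled for gene length and library total), including the astrocyte filament gene GFAP at 0.370 TPM. Vimentin (VIM) stood at 11825 TPM and the mesenchymal glioma marker CHI3L1 at 112.6 TPM. CHI3L1 differed between the groups, at 151.0 ± 12.7 TPM in high and 74.2 ± 26.1 TPM in low uptake, without passing (edgeR log2 0.99, adjusted p = 0.0890). Of 8 fibroblast markers, DPT was at 0 in every library, and the defining matrix genes DCN and COL3A1 averaged 0.290 and 0.138 TPM. The other 5 averaged 1 TPM or more, with COL1A2 at 376.6, COL1A1 at 253.7, PDGFRB at 17.3, LUM at 9.94 and PDGFRA at 1.05 TPM. In edgeR 4 of these 5, all but PDGFRA, were called higher in high uptake, as were 3.03% of all tested genes. The lists were drawn up with earlier results of these data known, so this count is no independent evidence. TMEM119 is also a marker of microglia in brain tissue. Of 12 microglial and immune markers, AIF1, C1QA, C1QB and C1QC had no count in any library and 10 averaged under 1 TPM. The exceptions were CSF1R at 11.05 TPM and SALL1 at 46.7 TPM. Summed over the lists, fibroblast markers reached 814.3 to 985.6 TPM in high-uptake and 345.0 to 428.8 TPM in low-uptake libraries, led by collagen I. The sums for immune markers were 58.7 to 66.0 and 51.7 to 56.5 TPM, and those for osteoblast markers 42.4 to 47.2 and 31.8 to 35.3 TPM. The part of any other cell type in the results was not tested.

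Levels of different genes were compared per length, as the authors' TPM. MYL9, the regulatory light chain of smooth muscle and non-muscle myosin, was the most abundant member, at 271.4 ± 19.4 TPM in high uptake and 248.2 ± 10.8 TPM in low uptake (mean ± SD, n = 3 each), above 95.8% of tested genes in mean TPM. In high uptake LRRC15 was second, at 124.1 ± 8.55 TPM, followed by PDPN at 75.9 ± 7.72 TPM and FAP at 69.2 ± 8.45 TPM. In low uptake these 3 genes lay close together, with PDPN at 51.6 ± 3.78 TPM, LRRC15 at 47.7 ± 4.06 TPM and FAP at 42.8 ± 1.79 TPM. PDPN and FAP overlapped between libraries in high uptake, while in low uptake LRRC15 overlapped both PDPN and FAP. LRRC15 thus stood clear of its neighbours in the order in high uptake and among them in low uptake.

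The lower part of the order held the other contractile genes and THY1. ACTA2 averaged 23.2 ± 5.18 TPM over the 6 libraries, S1PR3 14.3 ± 2.88 TPM, TMEM119 8.46 ± 5.01 TPM and TAGLN 7.04 ± 1.26 TPM. CNN1 averaged 3.06 ± 0.382 TPM and THY1 2.18 ± 0.876 TPM, and these last 2 overlapped in high uptake. TMEM119 exceeded TAGLN in high uptake (12.9 ± 2.08 against 7.06 ± 1.43 TPM) and lay below it in low uptake (4.05 ± 0.529 against 7.01 ± 1.39 TPM), where it overlapped CNN1.

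**Figure D1:**
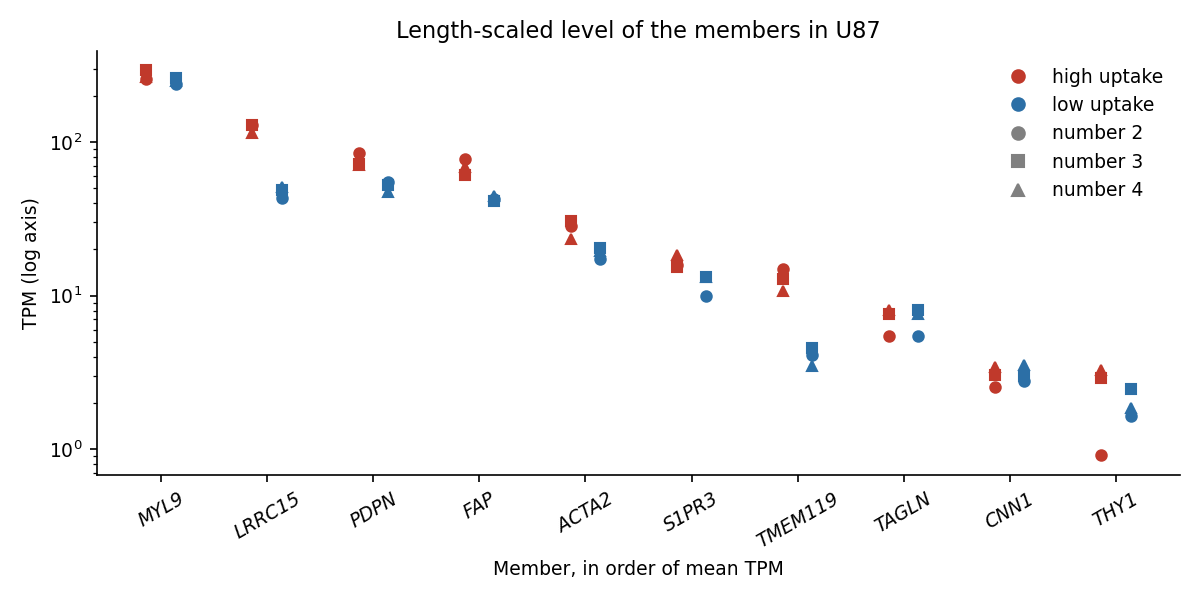
Level of the 10 members in TPM (log axis) in each library, in order of mean TPM, with red for high uptake, blue for low uptake and the marker shape for the replicate number. MYL9 lies highest at 259.8 TPM on average and THY1 lowest at 2.18 TPM, and the red and blue points of LRRC15 and TMEM119 are the farthest apart.

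TAGLN, CNN1 and ACTA2 were far scarcer than their relatives found in most cells, which were picked for comparison after their values were seen. TAGLN (transgelin) averaged 7.04 TPM against 1024 TPM for TAGLN2, and CNN1 (calponin of smooth muscle) 3.06 TPM against 107.3 TPM for CNN2 and 34.4 TPM for CNN3. ACTA2 stood at 23.2 TPM beside 6666 TPM for the cytoplasmic actin ACTB. MYL9, at 259.8 TPM, was closer to its relatives MYL12A at 491.1 TPM and MYL12B at 552.7 TPM. Among all tested genes ACTA2 exceeded 54.5% in mean TPM, TAGLN 30.0% and CNN1 19.5%. Of the surface genes, LRRC15 exceeded 83.9%, PDPN 78.4% and FAP 75.7%.

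Between the sorted fractions, levels of 1 gene are given as CPM (counts relative to the library total, scaled between libraries by TMM). Of the 10 members, 4 were higher in high uptake past the threshold of edgeR's quasi-likelihood test over all 14598 genes (adjusted p under 0.05), none was lower and 6 did not pass. Over all tested genes 4.29% passed, and 3.03% passed as higher. Since the genes were listed with this contrast known, the count and the values below are a description and test nothing. All 4 that passed were surface genes, LRRC15, TMEM119, FAP and PDPN. At an unadjusted p under 0.05 none of the 10 was lower and 6 were higher, DESeq2 called 6 higher and 0 lower, and limma 4 and 0. Of all 14598 tested genes, 1515 were higher and 1164 lower unadjusted, 584 and 290 in DESeq2, and 450 and 192 in limma. As RNA was taken from pools of sorted cells, more cells expressing a gene and more RNA per cell cannot be told apart.

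LRRC15, a leucine-rich repeat membrane protein induced by TGF-beta in cancer-associated fibroblasts, stood at 312.5, 315.7 and 272.0 CPM in high replicates 2, 3 and 4. In low replicates 2, 3 and 4 it stood at 105.0, 122.2 and 126.9 CPM. Every high-uptake library lay above every low-uptake library, and the spread within either group was small beside the gap between them. The group means were 300.1 ± 24.4 and 118.1 ± 11.5 CPM, a ratio of 2.54 and a log2 fold change of 1.35 (SE 0.0947). It ranked 39 in size of rise among the 14598 tested genes. Its log2 difference was 1.57, 1.37 and 1.10 between the libraries numbered 2, 3 and 4.

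TMEM119, a small membrane protein of osteoblast precursors and microglia, gave the largest fold change of the 10 from a much lower level. Its values were 16.4, 14.4 and 11.6 CPM in high uptake (662, 194 and 388 counts) and 4.55, 5.18 and 3.96 CPM in low uptake (176, 114 and 81 counts). The lowest high-uptake library lay far above the highest low-uptake library. Means were 14.1 ± 2.38 and 4.57 ± 0.611 CPM, for a ratio of 3.10 and a log2 fold change of 1.63 (SE 0.155). Differences within the numbers 2, 3 and 4 were 1.85, 1.47 and 1.56.

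FAP, a serine protease of the surface of activated fibroblasts, stood at 88.2, 70.1 and 77.0 CPM in high uptake. Its low-uptake libraries were at 48.4, 48.5 and 52.3 CPM, in the order of replicates 3, 2 and 4. The groups did not overlap, and the low-uptake libraries lay closer together than the high-uptake ones. Its log2 fold change was 0.66 (SE 0.0980), from means of 78.4 ± 9.14 and 49.7 ± 2.20 CPM. DPP4, the closest relative of FAP and its partner in a surface protease complex, was looked up after its value was seen: with 65.9 ± 5.46 CPM in high and 51.3 ± 4.19 CPM in low uptake it missed the edgeR threshold (log2 0.36, SE 0.0960, adjusted p = 0.0598).

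PDPN encodes podoplanin, a mucin-type glycoprotein that tethers to the actin cortex through ezrin and moesin. It stood at 102.8, 88.4 and 84.9 CPM in high replicates 2, 3 and 4 and at 66.8, 66.2 and 59.2 CPM in low replicates 2, 3 and 4. The groups did not overlap, and the library numbered 2 was the highest in each. The log2 fold change was 0.52 (SE 0.0957), and without low replicate 4 it was 0.47 and no longer passed.

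S1PR3, a G protein-coupled receptor for the lipid sphingosine-1-phosphate, did not pass, although its groups did not overlap. It stood at 28.1, 27.7 and 32.5 CPM in high uptake and 18.0, 24.4 and 24.2 CPM in low uptake. The gap between the closest libraries was small beside the distance of low replicate 2 from the other low-uptake libraries. Its log2 fold change was 0.42 (SE 0.128), with 0.65, 0.18 and 0.42 within the numbers 2, 3 and 4. It passed in DESeq2, without a filter, with the trend with GC content removed and with the replicate number as a block.

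THY1, a lipid-anchored surface glycoprotein common to fibroblasts, neurons and T cells, was at a low level. Its counts were 36, 39 and 105 in high replicates 2, 3 and 4 and 63, 55 and 38 in low replicates 2, 3 and 4, or 0.891, 2.89 and 3.15 against 1.63, 2.50 and 1.86 CPM. High replicate 2 was the lowest and high replicate 4 the highest of the 6, so that the high-uptake group spanned the whole low-uptake range. The log2 fold change of 0.16 had an SE of 0.392, and it ran from -0.28 without high replicate 4 to 0.63 without high replicate 2. No direction can be given for THY1.

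**Figure D2:**
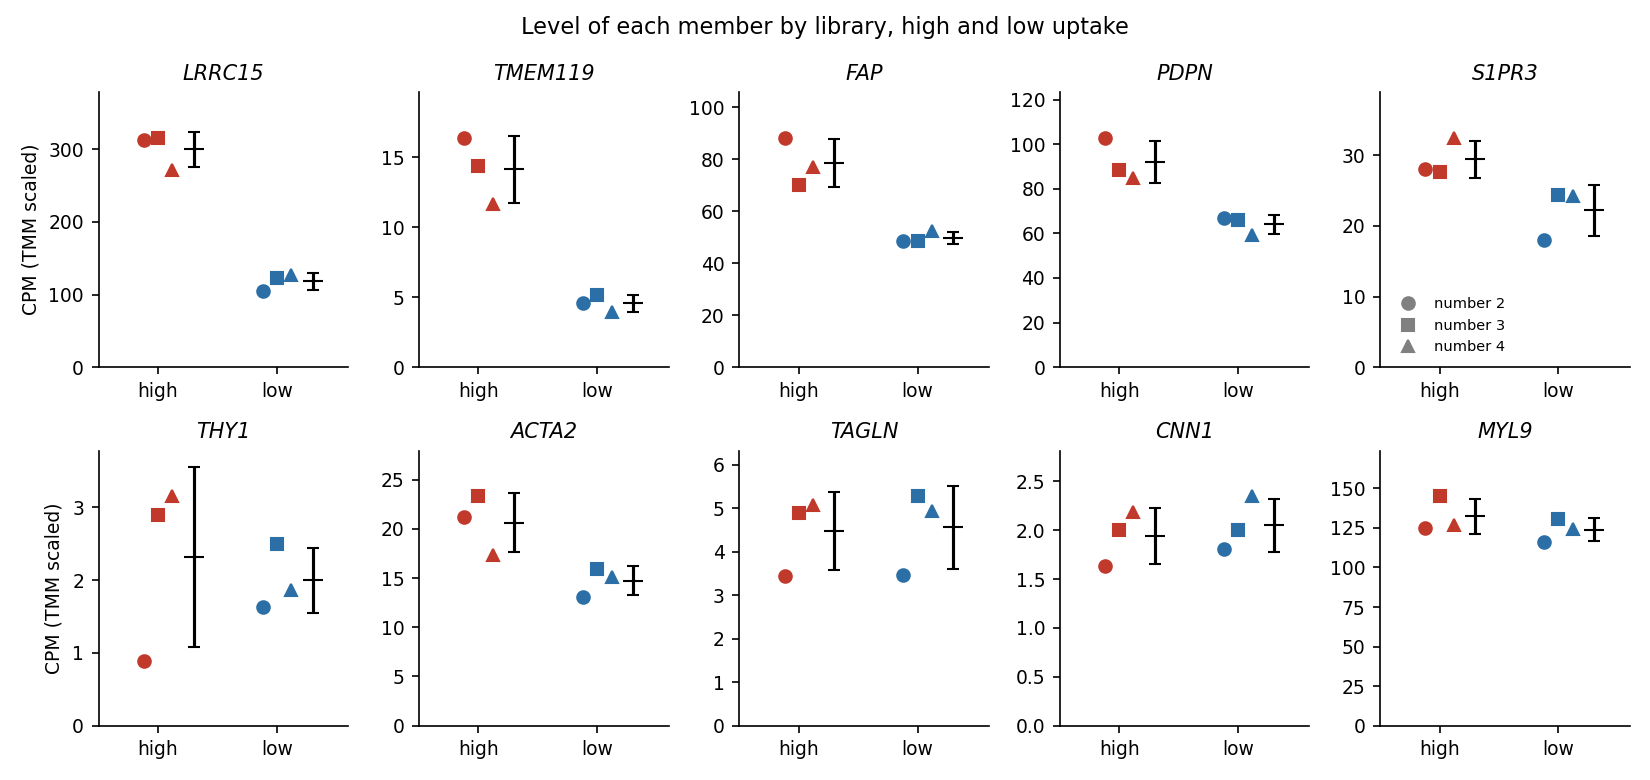
TMM-scaled CPM of each member by library, with red for high uptake, blue for low uptake, marker shape for the replicate number, and bars for the mean ± SD of 3 libraries. LRRC15, TMEM119, FAP, PDPN, S1PR3 and ACTA2 show no overlap between groups, while THY1, TAGLN, CNN1 and MYL9 overlap.

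Among the contractile genes ACTA2, which encodes smooth muscle alpha-actin, was the only member whose groups did not overlap. It stood at 21.2, 23.3 and 17.4 CPM in high uptake and at 13.1, 16.0 and 15.1 CPM in low uptake. High replicate 4 lay nearest to the low-uptake libraries, and the log2 difference was 0.69, 0.55 and 0.20 within the numbers 2, 3 and 4. The log2 fold change of 0.48 (SE 0.127) did not pass in edgeR. It passed in 6 of 17 other settings: DESeq2, no filter, the replicate block, the length trend or the GC trend removed, and without high replicate 4, where it was 0.60.

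ACTA2 reads have 2 further uncertainties. Per GENCODE release 29, ACTA2 shares 516 of its 2976 exon bases with ACTA2-AS1 (3183 exon bases) on the opposite strand, and whether reads were counted by strand is not given in the sources used here. ACTA2-AS1 stood at 12.2, 13.1 and 9.60 CPM in high uptake and 8.02, 8.23 and 8.31 CPM in low uptake (log2 0.50, SE 0.131, adjusted p = 0.0593). Both genes were lowest in high replicate 4 among the high-uptake libraries, and reads within the shared bases cannot be told apart without the strand setting. The coding sequence of ACTA2 also resembles that of the other muscle actins, and how reads with several matches were handled is not given either.

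TAGLN, an actin-binding protein of smooth muscle and a widely used myofibroblast marker, stood at 3.44, 4.90 and 5.07 CPM in high uptake and 3.47, 5.27 and 4.94 CPM in low uptake. The 2 groups had nearly the same values number by number. Its log2 fold change was -0.03 (SE 0.203).

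CNN1, which binds actin and inhibits myosin in smooth muscle, rested on few counts, 66, 27 and 73 in high replicates 2, 3 and 4 against 70, 44 and 48 in the low-uptake ones. These came to 1.63 to 2.19 CPM in high uptake and 1.81 to 2.35 CPM in low uptake. The groups overlapped, with a log2 fold change of -0.08 (SE 0.206). The SE of TAGLN and of CNN1 was more than 0.2, against 0.0957 for PDPN, and the sign of both changed when single libraries were left out (-0.22 to 0.16 for TAGLN and -0.19 to 0.063 for CNN1).

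MYL9 was far better covered, with 124.9, 145.0 and 126.9 CPM in high uptake against 116.4, 130.5 and 124.6 CPM in low uptake. The groups overlapped, and low replicate 3 lay above 2 of the 3 high-uptake libraries. The log2 fold change was 0.09 (SE 0.0864), and it stayed between 0.01 and 0.15 over the 17 other settings, none of which called it. Its SE was the smallest of the 10 members.

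None of the 4 contractile genes passed in edgeR or limma (ACTA2 at an unadjusted p under 0.05 and in DESeq2), against 4 of the 6 surface genes, with a median log2 fold change of 0.03 against 0.59. Whether the 2 sets differ was not tested. The groups did not overlap for 6 of the 10 members, all 6 with high uptake above low, where 13.0% of all tested genes did so in that direction. The authors' deposited list of 2305 gene symbols, which carries no values, names the same 6, LRRC15, TMEM119, FAP, PDPN, S1PR3 and ACTA2, and holds 15.8% of the tested genes. That list belongs to this same series, so the match is no independent evidence.

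**Figure D3:**
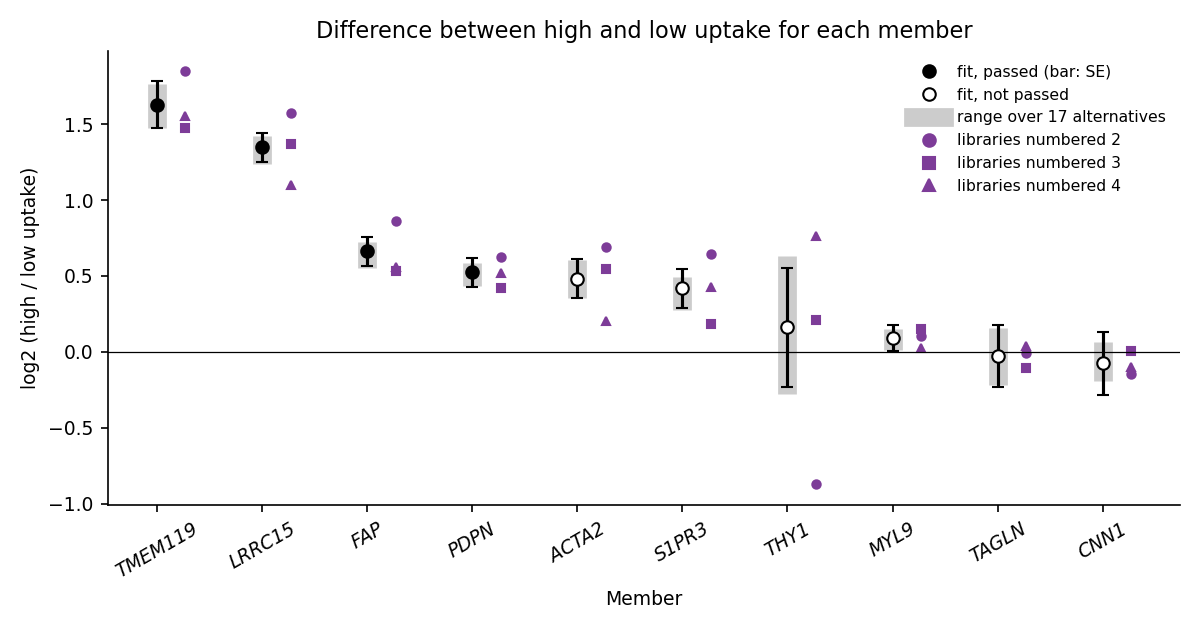
Log2 fold change of high over low uptake for each member: circles with SE bars are the edgeR fit (filled if past the threshold), grey bars the range over 17 alternatives, and purple markers the difference between libraries of equal number. TMEM119 (1.63) and LRRC15 (1.35) stand apart from the rest, and the grey bars of THY1, TAGLN and CNN1 cross 0.

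Promoter sequence was examined as a property that had no part in choosing the genes. RefSeq windows from 250 bases before to 50 bases after a start (build GRCh38.p14) were found for 5 of the 10 genes, LRRC15, PDPN, S1PR3, ACTA2 and CNN1, in 9 windows; TMEM119, FAP, THY1, TAGLN and MYL9 had none. ACTA2 and LRRC15 are printed because, of the genes with a window, they are the contractile gene with CArG-like boxes and the surface gene with the largest rise: the stretch is the 183 bases before the start, 5′ to 3′ on the gene's strand. ACTA2 comes from chr10:88952774-88952956 and LRRC15 from chr3:194369744-194369926, both on the minus strand. Capitals mark CArG boxes with up to 1 mismatch in the middle, the TEAD-type motif GGAATG, and TATA-like TATATA or TATAAA, searched on both strands.
ACTA2: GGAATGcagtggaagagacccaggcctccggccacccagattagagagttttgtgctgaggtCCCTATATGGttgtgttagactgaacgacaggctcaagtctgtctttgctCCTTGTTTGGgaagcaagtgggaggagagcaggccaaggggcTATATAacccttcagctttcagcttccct
LRRC15: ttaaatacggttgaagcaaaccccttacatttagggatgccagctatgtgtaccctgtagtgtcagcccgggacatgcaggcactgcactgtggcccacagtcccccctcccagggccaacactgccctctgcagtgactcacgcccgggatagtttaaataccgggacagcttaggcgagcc

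The ACTA2 stretch held 2 CArG boxes with 1 mismatch, CCCTATATGG starting 121 bases and CCTTGTTTGG starting 71 bases before the start, followed by TATATA at 29 bases and preceded by GGAATG at 183 bases. The LRRC15 window and the other ACTA2 window held none of these motifs, nor the SMAD-type CAGACA or the E-box CANNTG. An exact CArG box was found in none of the 9 windows and in 1.29% of 35116 windows genome-wide, and a CArG box with up to 1 mismatch in 8.13% of them. Besides ACTA2, a box with 1 mismatch occurred in a single further window, 1 of the 3 of PDPN (CCTACAATGG). CAGACA, which 16.9% of all windows hold in either direction, was found at 177 bases and in reverse at 123 bases before the start in that same PDPN window, and in reverse at 230 bases in CNN1. GGAATG, in 14.0% of all windows, was found in ACTA2 alone among the 9. TATATA or TATAAA, in 13.7% of all windows, was found in PDPN as well as ACTA2. These matches are descriptions of letters in short windows, and enhancers or intronic elements lie outside them.

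How the members varied between replicates of the same group does not use the contrast. After the group means were subtracted, Pearson correlations of log2 CPM over the 6 libraries were above 0 for 28 of the 45 pairs of members, with a median of 0.16. They ran from -0.97 for PDPN with CNN1 to 0.90 for LRRC15 with ACTA2. TAGLN went with CNN1 (0.84) and THY1 (0.84), and PDPN went against all 3 (-0.74 with TAGLN, -0.76 with THY1). With 6 libraries and group means removed such values are a description only.

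The libraries numbered 2 stood apart for several members. Measured from its group mean in log2 units, TAGLN was at -0.35 in high and -0.37 in low replicate 2, and CNN1 at -0.23 and -0.17. THY1 was at -1.12 and -0.26, and MYL9 at -0.08 and -0.09. In each of these 4 genes the library numbered 2 was the lowest of its group in both groups, whereas for PDPN it was the highest in both (0.16 and 0.06). Transcript GC content was 58.3% for TAGLN, 58.8% for CNN1, 57.9% for THY1 and 60.9% for MYL9, and 50.1% for PDPN, but 62.0% for TMEM119, which was highest in high replicate 2. The part of GC content in these deviations was not tested. The 3 genes most like each member in this measure, among 13178 ranked, included no other member. They were CFDP1, GADD45GIP1 and TMEM203 for LRRC15 (r from 0.996 to 0.998) and BCDIN3D, PIH1D1 and PXYLP1 for TMEM119 (r from 0.992 to 0.999), values that the best of so many genes can reach over 6 libraries.

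**Figure D4:**
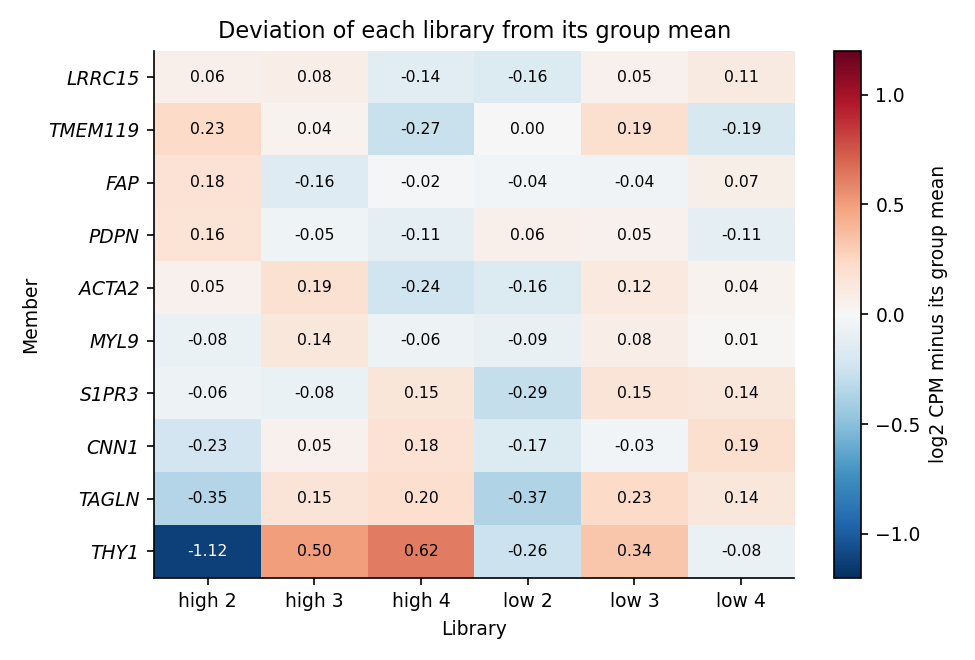
Deviation of log2 CPM from the group mean for each member (rows) in each library (columns), with red above and blue below the mean and the value printed in each cell. THY1 in high replicate 2 is the farthest out at -1.12, and TAGLN, CNN1 and MYL9 are lowest in both libraries numbered 2.

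In the wider contractile programme 7.5% of tested genes passed, beside 4.29% of all tested genes. Of 40 tested genes for actins, myosins, tropomyosins, focal adhesion and SRF cofactors, 2 rose, 1 fell and 37 did not pass, with a median log2 fold change of 0.02 beside -0.00 over all tested genes. MYLK, the kinase that phosphorylates myosin light chains such as MYL9, rose from 260.0 ± 17.8 to 416.0 ± 18.1 CPM (log2 0.68, SE 0.0777, edgeR adjusted p = 0.00109). Its 3 high-uptake libraries, at 398.2 to 434.3 CPM, all lay above the low-uptake range of 239.4 to 270.6 CPM. TPM1, a tropomyosin, rose by 0.32 (adjusted p = 0.0369), and FHL1, a LIM-domain protein of muscle, fell by 0.58 (adjusted p = 0.0392). The TPM1 call was lost without any library but high replicate 3 (adjusted p from 0.0881 to 0.122), and the FHL1 call without either library numbered 2 or without low replicate 4 (0.0512 to 0.151). Leaving out any of those last 3 libraries left 1 call in the list.

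The 3 most abundant genes of that list did not pass. ACTB and ACTG1, the cytoplasmic actins, had log2 fold changes of -0.05 (adjusted p = 0.802) and -0.09 (adjusted p = 0.643), and MYL6, an essential myosin light chain, 0.00 (adjusted p = 0.997). SRF itself was at 89.0 ± 7.17 CPM in high and 90.6 ± 8.21 CPM in low uptake (log2 -0.03, SE 0.0948). DES, a filament gene of muscle, had 2 counts in all, both in high replicate 4, and MYOCD, the cofactor restricted to smooth and cardiac muscle, had 0 to 5 counts per library. SRF, DES and MYOCD were picked after their values were seen.

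Other genes of activated fibroblasts were called as higher, with no lower call in edgeR, DESeq2 or limma on the 6 libraries without a block. Of 42 listed, 31 had enough counts, of which 8 rose, none fell and 23 did not pass, with a median log2 fold change of 0.36. Of the 31, 25.8% passed, beside 4.29% of all tested genes; the list was drawn up with earlier results of these data known, so this share is no independent evidence. At an unadjusted p under 0.05, 17 were higher and 0 lower, DESeq2 called 12 higher and 0 lower, and limma 8 and 0. The same counts over all 14598 tested genes were 1515 and 1164 unadjusted, 584 and 290 in DESeq2, and 450 and 192 in limma. Lower calls appeared without low replicate 2 (9 higher, 2 lower), without both libraries numbered 2 (10 and 2) and with the replicate block (16 and 1). WISP1, a matricellular protein, rose by 1.77 (SE 0.216, adjusted p = 0.00168) from a low level of 1.32 ± 0.221 CPM to 4.48 ± 1.03 CPM. LOX, which cross-links collagen and elastin, rose by 0.85 (SE 0.0999, adjusted p = 0.00123), and PDGFRB, the platelet-derived growth factor receptor of fibroblasts and pericytes, by 0.83 (SE 0.129, adjusted p = 0.00535).

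LUM, which encodes the collagen-binding proteoglycan lumican, rose by 0.85 (SE 0.194, adjusted p = 0.0327). Leaving out any library numbered 2 or 4, in either group, ended that call (adjusted p of 0.0511 to 0.0930), as did the replicate block (0.1004), and the log2 fold change was 0.43 without both libraries numbered 2. GREM1, a secreted inhibitor of bone morphogenetic proteins and among the 3 most abundant of the list, rose by 0.46 (adjusted p = 0.00796), and the remaining calls, named after their values were seen, were ITGA11 (0.81), ENG (0.59) and ADAM12 (0.39). The other 2 most abundant were the hyaluronan receptor CD44 (log2 0.16, adjusted p = 0.230) and the membrane protease MMP14 (log2 0.32, adjusted p = 0.0954).

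Several genes that tumour fibroblasts usually carry were at or near 0 counts. MEOX1 had none, CD248 and COMP had 1 count in all, ASPN 3, SULF1 3, and POSTN 0 to 7 counts per library; these too were named after their values were seen. In all, 13 of the 42 averaged under 1 TPM. The line thus held LRRC15, FAP, PDPN and PDGFRB beside nearly no count of POSTN (periostin) or CD248, which are known companions of these genes in tumour fibroblasts.

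TGF-beta signalling genes, some of which act upstream of this programme, gave 4 calls among 27 tested, all higher, with a median log2 fold change of 0.21. That is 14.8%, beside 4.29% of all tested genes, and this list too was drawn up with earlier results known. At an unadjusted p under 0.05 there were 12 higher and 0 lower, while DESeq2 called 7 and 0 and limma 5 and 0. All 14598 tested genes gave 1515 and 1164 unadjusted, 584 and 290 in DESeq2, and 450 and 192 in limma. TGFBI, a matrix protein named for its induction by TGF-beta, rose from 1584 ± 210.9 to 2702 ± 167.4 CPM (log2 0.77, SE 0.0971, adjusted p = 0.00191). TGFBR2, the receptor subunit that binds the ligand, rose by 0.57 (SE 0.0792, adjusted p = 0.00304). The inhibitory SMAD genes SMAD6 and SMAD7 rose by 0.55 (adjusted p = 0.0450) and 0.33 (adjusted p = 0.0310). Leaving out either library numbered 2, high replicate 4 or low replicate 3 ended the SMAD6 call (up to 0.133) and in 4 further settings (up to 0.0572), and the SMAD7 call without any library but high replicate 3 (up to 0.144). The list kept 2 calls without high replicate 2, high replicate 4 or low replicate 3.

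The ligand gene TGFB1 did not pass in edgeR (log2 0.18, SE 0.0901, adjusted p = 0.338). LRRC32, a leucine-rich repeat protein that docks latent TGF-beta on cells, was at 0.938 TPM (log2 0.84, adjusted p = 0.0805, named after its value was seen).

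Genes of sphingosine-1-phosphate, the ligand of S1PR3, gave no call, where 4.29% of all tested genes passed, so that a list of this size could hold few. Of 24 tested, none passed in edgeR, DESeq2 or limma, and the median log2 fold change was 0.03. At an unadjusted p under 0.05, 1 was higher and 1 lower, beside 1515 and 1164 of all 14598 tested genes. S1PR3 was the most abundant receptor of the family, at 14.3 TPM against 1.502 TPM for S1PR2 and 0.439 TPM for S1PR1, a comparison made after the values were seen. The log2 fold change of S1PR2 was 0.78 (SE 0.244, edgeR adjusted p = 0.106), larger than the 0.42 of S1PR3. For S1PR1 it was -0.49 (SE 0.345, adjusted p = 0.499). SPHK1, a kinase that makes the lipid, was at 194.0 ± 19.0 CPM in high and 220.6 ± 38.2 CPM in low uptake (log2 -0.19, adjusted p = 0.462). RHOA and the G protein subunit gene GNAI2, through which the receptor signals, had log2 fold changes of 0.02 (adjusted p = 0.928) and 0.16 (adjusted p = 0.406).

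**Figure D5:**
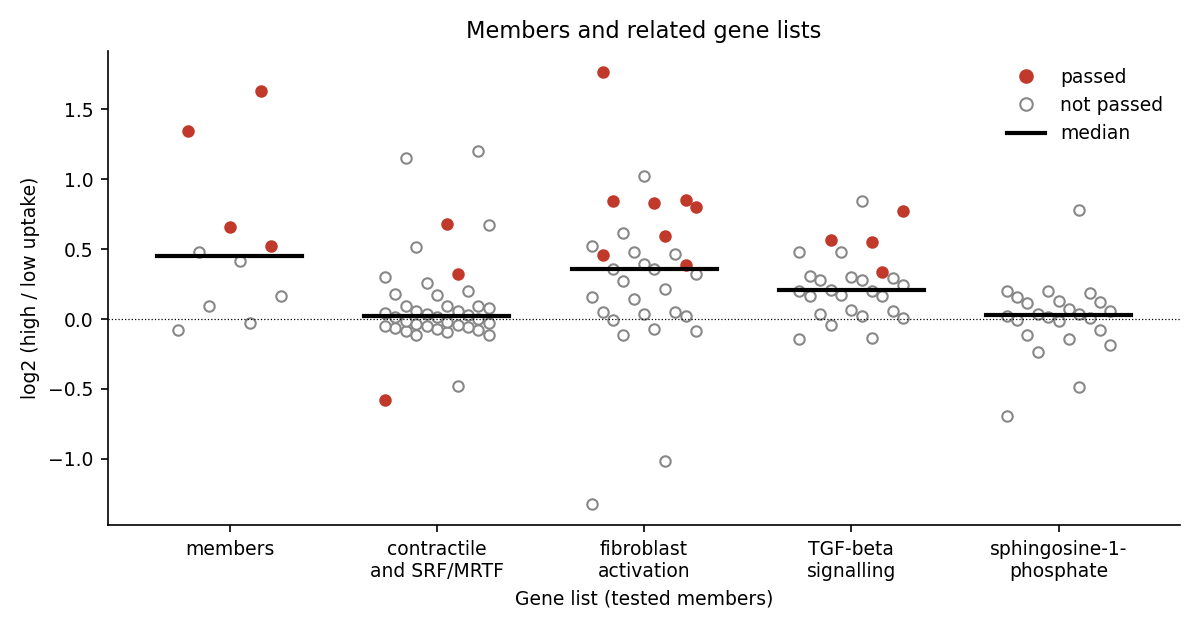
Log2 fold change of high over low uptake for the 10 members and for the tested genes of 4 related lists, with red for genes past the edgeR threshold, open circles for the rest and black bars for the median. The fibroblast activation list (median 0.36) and the TGF-beta list (0.21) lie above the contractile (0.02) and sphingosine-1-phosphate (0.03) lists.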

How the data were processed

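The data are RNA-seq of 6 U87 libraries from a directional kit, per the labels' protocols. The tools fastp, STAR and featureCounts and build hg19 are named in the submitters' processing notes. For versions, strand setting, annotation and multi-mapped reads: not given in the sources used here. Per the file headers, the deposited files hold read counts per gene, and FPKM and TPM values computed by the authors. A deposited list of gene symbols has no values and is classed as other.

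Counts were tested with edgeR 4.0.16 (filterByExpr defaults, minimum count 10, minimum total 15, TMM, robust quasi-likelihood F-test, Benjamini-Hochberg over 14598 genes, threshold 0.05). The SE is the log2 fold change divided by the square root of F. Log2 CPM used a prior count of 2. FPKM gave gene lengths and TPM levels. Alternatives used DESeq2 1.42.0, limma 3.58.1, other scalings and filters, a replicate block, length or GC trends removed (GC from GENCODE transcripts for 92.9% of tested genes) and each library left out. The edgeR step was tested on simulated data. Promoters came from RefSeq (GRCh38.p14).

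The members and the lists were chosen with earlier results of these data known. Named genes were all members, the up to 4 largest rises and falls past the threshold and the 3 highest in TPM of each related list, and the 3 genes most like a member. 1 gene that this rule names is not reported here.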

Additional observations from a re-analysis of the deposited data

How the results depend on the processing

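Each result was recomputed under 17 alternatives. Passing genes numbered 626 (442 higher, 184 lower) in the test of the report, 2423 (1385 and 1038) after removal of the GC trend and 232 to 738 with 1 library left out (282 and 379 without high replicates 2 and 4, 276 and 232 without low replicates 3 and 4). With the replicate number as a block there were 3176 (1758 and 1418). The block gave 11 contractile (10 higher, 1 lower) and 17 fibroblast genes (16 higher, 1 lower). It also gave 15 TGF-beta (all higher) and 6 sphingosine-1-phosphate genes (4 higher, 2 lower). In the same order the GC setting gave 9 (8 higher, 1 lower), 15 (all higher), 12 (all higher) and 5 (4 higher, 1 lower). As tested, these lists gave 3, 8, 4 and 0. Nothing in the labels ties equal numbers to 1 culture or day, and whether they mark pairs is not known. Deviations of same-numbered libraries correlated at 0.45, 0.30 and 0.09. Each high-uptake library went best with the low-uptake library of its own number, but low replicate 4 went best with high replicate 3 (0.22). If the numbers do mark pairs, the test of the report leaves that pairing out. Without a filter the fibroblast, TGF-beta and sphingosine-1-phosphate lists gave 13, 7 and 1, DESeq2 gave 7 TGF-beta genes, and the last list gave 1 without the libraries numbered 2. Leaving out 1 library gave 1 to 3 contractile, 6 to 11 fibroblast (up to 2 of them lower) and 2 to 5 TGF-beta genes. Members past the threshold numbered 3 to 6, and LRRC15, TMEM119 and FAP passed in all 17 settings.

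Of 544 values for 32 named genes, 461 kept direction and call, 31 lost and 25 gained the call, and 27 changed sign, all in genes that did not pass. THY1 was -0.10 in limma and -0.28 to 0.63 with 1 library left out. TAGLN was 0.018 with the length trend removed and -0.22 to 0.16 with 1 library left out, CNN1 -0.19 to 0.063, ACTB -0.14 to 0.0092, MYL6 -0.056 to 0.10 and RHOA -0.027 to 0.075. RHOA was -0.0035 with library totals. MYL6 was -0.0011 with RLE scaling and in DESeq2, -0.0034 with the stricter filter, -0.0038 with the block, -0.0046 after removal of the GC trend, -0.0055 in limma, -0.014 with upper quartile scaling, -0.025 with library totals and -0.079 without the libraries numbered 2. The cause of these changes was not tested. Counts per library were lowest for CNN1 (27 to 73) and THY1 (36 to 105), and the part of depth in their errors was not tested.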

Other observations

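Of 7 tested pericyte and smooth muscle markers, 1 was called lower in high uptake and none higher. Over all tested genes 1.26% were called lower and 3.03% higher. The call was ABCC9, a potassium channel regulator (17.7 ± 4.10 against 28.1 ± 2.96 CPM, n = 3 each, edgeR adjusted p = 0.0304). The other tested markers of this list did not pass, and most of them were higher in high uptake. NOTCH3 stood at 31.1 ± 2.11 and 21.4 ± 4.52 CPM (edgeR adjusted p = 0.0572). ACTG2 and LMOD1, both at low counts, had ratios of high over low CPM of 2.14 (adjusted p = 0.0848) and 2.02 (adjusted p = 0.152), without overlap between groups. The log2 fold change was 0.12 for MCAM, 0.055 for MYH11 and -0.19 for RGS5. The list thus showed no common direction. The osteoblast markers IBSP and DMP1 had no count in any library. CDH11, a cadherin of fibroblasts, was counted 21, 23 and 50 times in the high-uptake and 28, 79 and 97 times in the low-uptake libraries (log2 -1.32, SE 0.770, adjusted p = 0.431). COL11A1, a collagen chain of tumour fibroblasts too low to be tested, had 20, 6 and 10 counts in high uptake and 2, 3 and 1 in low uptake. These genes were picked after their values were seen.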
